A study of Ambystoma mexicanum with 12 samples.

Results

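The merged transcript assembly of regenerating axolotl forelimb blastemas contained loci that overlapped no reference gene on either strand, carried only transcripts put together by StringTie from the reads, and included at least 1 spliced transcript of 2 or more exons. Of 6473 such loci in the assembly, 828 had fewer than 6 libraries with at least 10 counts, 3 were left out, and 5642 remained. These 5642 unannotated multi-exon intergenic loci were described among the 25879 rows of the count table that passed the same filter, out of 36917 rows in all. The other rows tested were 15233 genes with a reference transcript, 3468 intergenic loci of 1 exon and 1533 unannotated loci that overlapped a reference gene.

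Total RNA came from 12 right forelimb blastemas of albino axolotls (Ambystoma mexicanum), a salamander that regrows a severed limb from a blastema, the mound of proliferating cells at the stump. Both forelimbs were amputated through the middle of the zeugopod (the lower arm). From 24 h later, 6 animals were kept for 5 days in water with 25 nM Am580, an agonist selective for retinoic acid receptor alpha (RARα), and 6 in water with an equal volume of the DMSO vehicle. The right blastemas were collected 24 h after treatment, the epidermis was removed, and each mesenchyme gave 1 library. The Am580 limbs were chosen for the strongest duplication of the opposite limb. No duplication was scored in any DMSO animal, so the DMSO limbs were not selected by it. The selection of the Am580 animals and the treatment cannot be told apart.

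An intergenic locus found by transcript assembly may be a gene that the reference set lacks, a long non-coding RNA, a transcribed mobile element, or a detached piece of a neighbouring gene such as a distant exon or an untranslated end. A splice junction lowers the chance that such a locus is stray genomic sequence, although it does not tell these kinds apart. RARα is a nuclear receptor that binds DNA with a retinoid X receptor partner and switches on its target genes when retinoic acid or an agonist such as Am580 occupies it, and in the amphibian limb blastema retinoids shift positional identity toward the shoulder.

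Total counts per library were 34279044 to 43793138 with Am580 and 27226012 to 40794002 with DMSO, which overlapped (p = 0.128, two-sided exact permutation test). The retinoid targets used as a check of the treatment separated the libraries. CYP26A, which breaks down retinoic acid, had 73.6 to 218 CPM (counts scaled to a common library size with TMM factors) in Am580 libraries and 0 in each DMSO library. RARB, a retinoic acid receptor gene, had 25.5 to 51.5 CPM with Am580 and 0.0525 to 0.221 CPM with DMSO, and DHRS3, a retinaldehyde reductase, had 240.4 to 338 CPM with Am580 and 16.7 to 20.8 CPM with DMSO. Of 9 connective tissue markers 7 were measured, with a summed level of 5692 to 10997 CPM with Am580 and 7493 to 14290 CPM with DMSO, and these ranges overlapped. In bulk tissue, fewer cells of a type and less RNA per cell cannot be told apart.

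The loci had less exon sequence than reference genes and, among rows that passed the count filter, a similar median level per length. The transcript with the most exons in a locus had a median of 3 exons (range 2 to 47). By this number, 1783 loci had 2 exons, 2104 had 3 to 4, 1335 had 5 to 9 and 420 had 10 or more. The exons of a locus covered a median of 826 bp (range 200 to 19431 bp), against 3241 bp in reference genes. Introns made the loci far longer on the genome, with a median span of 65.0 kb and a range of 0.288 to 3114 kb. Plus and minus strands held 2808 and 2834 loci. The loci lay on 4564 of the 13297 scaffolds of the assembly, and 2577 of those scaffolds carried no reference gene. Their median level was 2.85 CPM per kb of exon, beside 2.92 CPM per kb in reference genes and 1.20 CPM per kb in single-exon intergenic loci. The count filter took no account of length, so a short locus needed a higher level per length to pass. Without scaling by length, the median was 2.81 CPM in the loci and 10.8 CPM in reference genes. Together the loci took 12.9 ± 0.519% of the counts of an Am580 library and 12.7 ± 0.717% of a DMSO library (SD, n = 6 each). These shares did not differ beyond their spread (p = 0.604, two-sided exact permutation test).

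No reference gene lay on the scaffold of 2797 loci. Of the other 2845, 180 lay less than 1 kb from the nearest reference gene, 118 lay 1 to 10 kb away, 427 lay 10 to 100 kb away and 2120 lay farther than 100 kb, with a median of 254 kb. Within 1 kb, 117 of the 180 loci were divergent, that is, on the opposite strand and pointing away from the start of the gene. Another 28 lay downstream of the gene on its strand, 20 were convergent and 15 lay upstream on its strand.

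After Am580, 589 of the 5642 loci (10.4%) were differentially expressed at an adjusted p under 0.05 in edgeR's quasi-likelihood test, beside 14.1% of all rows tested. Higher levels with Am580 were called at 271 loci (4.80%) and lower levels at 318 (5.64%), beside 6.93% and 7.21% of all rows tested. Which direction had more calls depended on the scaling, since with upper-quartile factors 295 were higher and 284 lower, and with library size alone 325 were higher and 251 lower. It also depended on DMSO replicate 1, without which 307 were higher and 287 lower. With a log2 fold change of 1 or more in size, 319 loci were called (177 higher and 142 lower, 5.65%), beside 6.09% of all rows tested. With a log2 fold change of 2 or more in size, 123 loci were called (61 higher and 62 lower, 2.18%), beside 2.01% of all rows tested. The called loci had a median absolute log2 fold change of 1.09, against 0.77 in called reference genes. It was 1.09 in called unannotated loci that overlapped a reference gene and 1.31 in called single-exon intergenic loci. With rows that were not called included, it was 0.216 in the loci, 0.199 in reference genes and 0.216 over all rows tested. Over all 5642 loci the median log2 fold change was -0.02, and it was 0.00 over all rows tested. Every Am580 library stood above or below every DMSO library at 349 loci (156 higher and 193 lower, 6.19%), beside 8.6% of all rows tested.

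**Figure D1:**
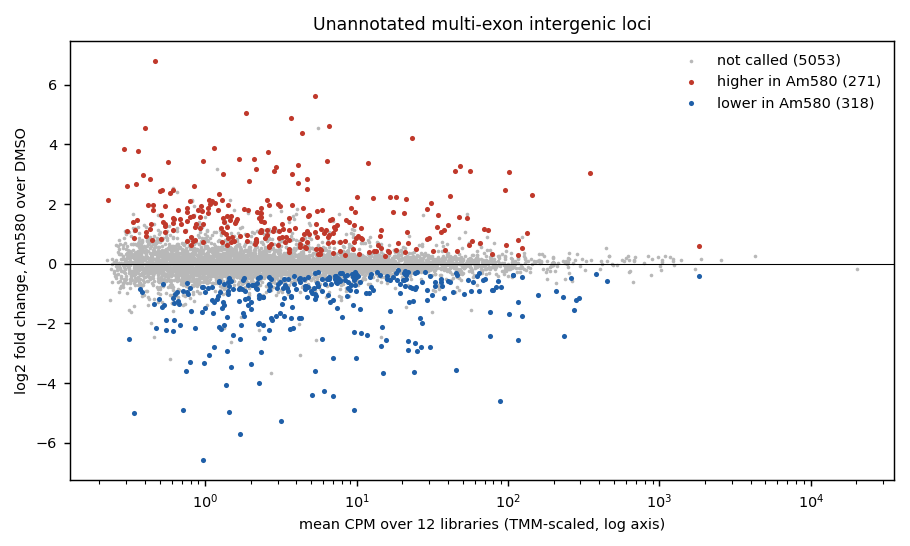
Each point is 1 of the 5642 unannotated multi-exon intergenic loci, with its mean level over the 12 libraries (TMM-scaled CPM, log axis) against its log2 fold change of Am580 over DMSO. Red points are the 271 loci called higher with Am580, blue points the 318 called lower, and grey points were not called. All called loci with a log2 fold change above 4 or below -4 had a mean under 100 CPM.

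The share of loci called went with their level. Below a mean of 1 CPM, 102 of 1403 loci were called (7.27%), and the shares were 10.8% at 1 to 10 CPM, 12.6% at 10 to 100 CPM and 15.7% at 100 CPM or more. In the same ranges 8.64, 13.4, 20.3 and 22.1% of reference genes were called, and over all reference genes 16.5% (7.88% higher and 8.57% lower). The spread between libraries of 1 treatment was wider in the loci than in reference genes in some of these ranges only. Below 1 CPM the median SD of log2 CPM was 0.479 (Am580) and 0.479 (DMSO) in the loci and 0.493 (Am580) and 0.520 (DMSO) in reference genes. At 10 to 100 CPM the median SD was 0.233 (Am580) and 0.211 (DMSO) in the loci and 0.186 (Am580) and 0.179 (DMSO) in reference genes. At 1 to 10 CPM it was 0.321 (Am580) and 0.292 (DMSO) in the loci and 0.316 (Am580) and 0.295 (DMSO) in reference genes. At 100 CPM or more it was 0.230 (Am580) and 0.239 (DMSO) in the loci and 0.192 (Am580) and 0.177 (DMSO) in reference genes. Loci of 5 to 9 exons were called in 12.4% of cases, those of 2 exons in 9.98% and those of 10 or more exons in 9.29%. Of the 39 called loci with 10 or more exons, 14 were higher and 25 lower with Am580.

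**Figure D2:**
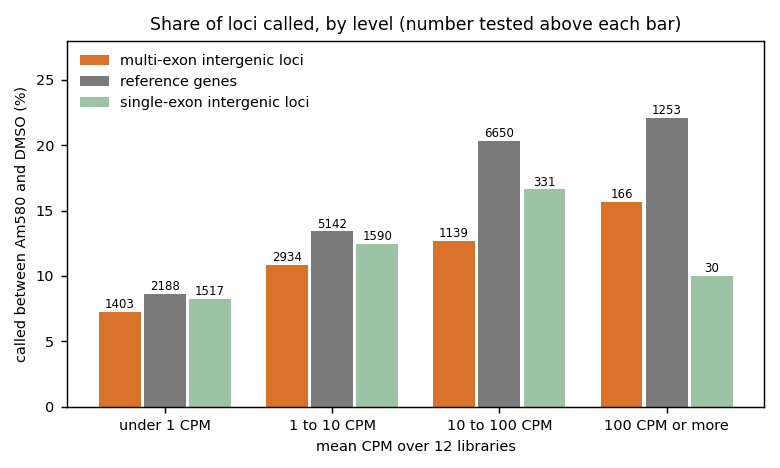
Bars give the percentage of loci called different between Am580 and DMSO in 4 ranges of mean CPM, for multi-exon intergenic loci (orange), reference genes (grey) and single-exon intergenic loci (green), with the number tested above each bar. The orange bar is below the grey bar in each range, at 12.6% against 20.3% for 10 to 100 CPM.

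The count filter let some loci in through 1 treatment. At 21 loci at least 10 counts were reached in all 6 libraries of 1 treatment and in none of the other (16 through Am580 and 5 through DMSO). These had to differ, and all 21 were called, so no p is given for them here. Of the 54 loci named by rule, 12 are among the 21: MSTRG.12044, MSTRG.17898, MSTRG.24242, MSTRG.10680, MSTRG.23400, MSTRG.15067 and MSTRG.3167 through Am580, and MSTRG.4054, MSTRG.16115, MSTRG.23482, MSTRG.13846 and MSTRG.5087 through DMSO. Another 15 reached 10 counts in all 6 libraries of 1 treatment and in 1 to 5 of the other. In each of these 15, that treatment met the filter by itself. It was Am580 at MSTRG.2544, MSTRG.12420, MSTRG.15509, MSTRG.6143, MSTRG.251, MSTRG.878, MSTRG.6402 and MSTRG.829. It was DMSO at MSTRG.23478, MSTRG.9588, MSTRG.3793, MSTRG.4053, MSTRG.23480, MSTRG.13432 and MSTRG.4440. An adjusted p given below for any of these 15 loci is therefore a description and no independent support. At 4560 loci each of the 12 libraries had at least 10 counts, and 458 of these were called. In a fit restricted to rows with 10 counts in every library, 10.5% of these loci were called, beside 15.2% of all rows tested. At the edge of the filter, 128 loci reached 10 counts in exactly 6 libraries and had a median of 0.338 CPM (range 0.225 to 4.03 CPM). Another 112 loci reached it in exactly 5 libraries and were left out, with a median of 0.276 CPM (range 0.192 to 3.45 CPM).

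At 5 loci every library of 1 treatment held no more than 3 counts, the upper limit that a count of 0 allows, which is at most 0.111 CPM in these libraries and covers counting error only. MSTRG.12044, a 4-exon locus on scaffold AMEXG_0030002990 (1552406 to 1556957, plus strand), had 0.305, 0.521 and 2.30 CPM as the lowest, median and highest Am580 library, against 0, 0 and 0.0251 CPM with DMSO. DMSO replicate 4 held the single count found with DMSO. The mean with Am580 was at least 8.41-fold higher than the limit. MSTRG.24242 had 0.488 to 1.18 CPM with Am580 and 0 to 0.0973 CPM with DMSO (at least 6.99-fold higher), and MSTRG.23400 had 0.255 to 0.937 CPM with Am580 and 0 to 0.0925 CPM with DMSO (at least 6.07-fold higher). MSTRG.23683 was at least 4.92-fold higher with Am580. The fifth locus, MSTRG.23482, was at least 7.19-fold lower with Am580. All 5 are among the 21 loci that passed the filter through 1 treatment.

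The 10 loci with the largest increase were taken from called loci whose treatments did not overlap and whose mean was 1 CPM or more, so their separation is a description. MSTRG.2544, of 4 exons on scaffold AMEXG_0030000472 (3868685 to 3983484, minus strand), led them. Its Am580 libraries had 7.75, 10.2 and 12.4 CPM (lowest, median and highest), against 0.0369, 0.207 and 0.352 CPM in DMSO libraries. The gap between the lowest Am580 and the highest DMSO library was wide, and the log2 fold change was 5.61 ± 0.311 (SE). The locus lay 1568 kb from the nearest reference gene, RABGAP1L, which did not pass the count filter.

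MSTRG.15509, a 12-exon locus on scaffold AMEXG_0030004387 (180437 to 338521, minus strand), had 9.76, 11.8 and 18 CPM in Am580 libraries, against 0.131, 0.556 and 0.812 CPM in DMSO libraries. All Am580 libraries were above all DMSO libraries, with DMSO replicate 5 apart at the low end (log2 fold change 4.62 ± 0.310, SE, adjusted p = 1.01e-06). MSTRG.12420, of 2 exons on scaffold AMEXG_0030003106 (387010 to 401356, minus strand), had 4.24, 6.62 and 11.3 CPM with Am580 and 0.0592, 0.0989 and 0.849 CPM with DMSO. Most of its DMSO libraries lay near the limit of a count of 0 (log2 fold change 4.89 ± 0.569, SE, and 5.75 without DMSO replicate 2).

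MSTRG.6143, of 6 exons on scaffold AMEXG_0030001278 (8641988 to 8674632, plus strand), started 4.33 kb downstream of the reference gene LOC101944392 on the same strand. It had 5.07, 9.29 and 11.1 CPM with Am580 and 0.278, 0.389 and 0.487 CPM with DMSO. The locus was called higher (log2 fold change 4.38 ± 0.240, SE, edgeR quasi-likelihood test, adjusted p = 2.38e-07), and the log2 fold change of LOC101944392 was 0.38 (adjusted p = 0.0302). Both passed the threshold, and the difference between their changes was not tested.

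MSTRG.10680, of 3 exons on scaffold AMEXG_0030002566 (2788607 to 3153870, minus strand), was the locus of this group whose nearest gene, foxc1, encodes a forkhead transcription factor of mesenchyme. It lay 175 kb away, convergent with the gene. The locus had 1.63, 2.17 and 2.65 CPM with Am580 and 0.0649, 0.149 and 0.216 CPM with DMSO (log2 fold change 3.87 ± 0.247, SE), and it passed the count filter through Am580 alone. For foxc1 the log2 fold change was 0.53 (adjusted p = 0.127), and its libraries overlapped at 19.9 to 34.2 CPM with Am580 and 10.6 to 28.9 CPM with DMSO.

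MSTRG.16792, a 3-exon locus on scaffold AMEXG_0030004951 (3251337 to 3272653, plus strand), varied widely between Am580 libraries. It had 18.5, 30.0 and 123 CPM with Am580 and 1.01, 1.71 and 5.29 CPM with DMSO. Am580 replicate 6 was far above the other Am580 libraries, which reached 36.7 CPM, yet the groups did not overlap (log2 fold change 4.23 ± 0.573, SE, adjusted p = 2.45e-04, and 3.6 without that library). MSTRG.251, MSTRG.878 and MSTRG.20387, with 2, 16 and 4 exons, completed the group at log2 fold changes of 3.52, 3.5 and 3.44. The nearest gene of MSTRG.251, gse1, was itself called higher (log2 fold change 0.79, adjusted p = 0.0417) at a distance of 332 kb.

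The 10 loci with the largest decrease were taken by the same rule. MSTRG.13846, of 2 exons on scaffold AMEXG_0030003698 (2456429 to 2692940, minus strand), had 0, 0.0711 and 0.122 CPM with Am580 (lowest, median and highest), against 2.1, 3.6 and 4.04 CPM with DMSO. Its Am580 libraries were close to the limit of a count of 0 (log2 fold change -5.70 ± 0.490, SE). MSTRG.16115, of 2 exons on scaffold AMEXG_0030004661 (1347627 to 1498888, minus strand), had 0, 0.0837 and 0.195 CPM with Am580 and 1.43, 3.09 and 3.73 CPM with DMSO. The groups stood well apart here too (log2 fold change -4.97 ± 0.475, SE). Both loci passed the count filter through DMSO alone.

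MSTRG.15620 had the highest level per length of these 10 (56.0 CPM per kb of exon). It is a 7-exon locus on scaffold AMEXG_0030004439 (4689077 to 4825915, plus strand), 754 kb from the nearest reference gene, NAE1. Am580 libraries had 2.90, 4.23 and 16.9 CPM and DMSO libraries 86.1, 186 and 212 CPM. Every Am580 library was below every DMSO library, with Am580 replicate 6 the highest among them (log2 fold change -4.59 ± 0.467, SE, adjusted p = 2.31e-05). MSTRG.26616, a 3-exon locus on a scaffold without a reference gene, had 0.892, 1.64 and 5.67 CPM with Am580 and 21.4, 24.9 and 40.1 CPM with DMSO (log2 fold change -3.66 ± 0.407, SE, adjusted p = 4.93e-05).

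MSTRG.13432, of 5 exons on scaffold AMEXG_0030003526 (1803421 to 1844377, minus strand), had 0.122, 0.404 and 1.58 CPM with Am580 and 6.76, 13.5 and 20.9 CPM with DMSO (log2 fold change -4.44 ± 0.500, SE, adjusted p = 5.48e-05). MSTRG.3793, MSTRG.9588, MSTRG.4053 and MSTRG.23480 had log2 fold changes of -4.06, -3.99, -4.27 and -4.41. The nearest gene of MSTRG.9588, slc7a7.L, an amino acid transporter subunit 551 kb away, was called in the opposite direction (log2 fold change 0.68, adjusted p = 2.65e-04).

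**Figure D3:**
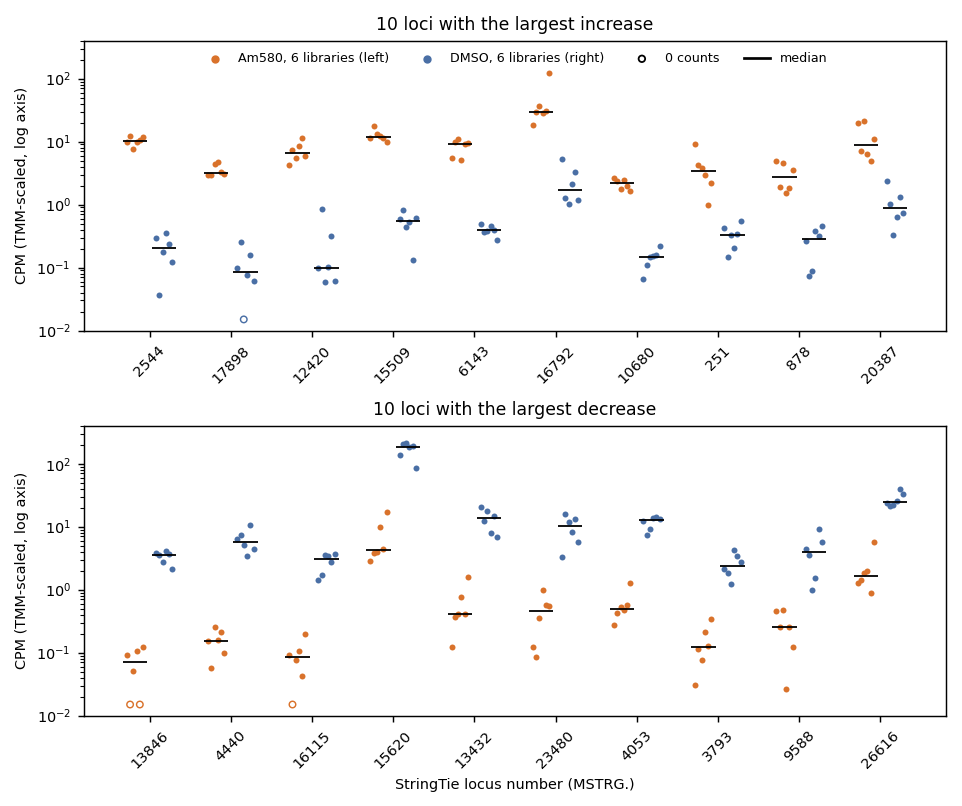
CPM in each library (TMM-scaled, log axis) of the 10 loci with the largest increase (top) and the 10 with the largest decrease (bottom) among called loci whose treatments did not overlap and whose mean was 1 CPM or more. Am580 libraries (orange) are left of DMSO libraries (blue), black lines are medians, and open circles at the bottom are libraries with 0 counts. Am580 replicate 6 is the highest orange point for MSTRG.16792 (123 CPM) and for MSTRG.15620 (16.9 CPM).

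Markers of osteoclasts, the bone-resorbing cells of the macrophage lineage, were lower with Am580 in the same libraries. Of 12 marker symbols, 8 were carried by the assembly, and all 8 genes tested were called lower (median log2 fold change -2.34). Their summed level was 394 to 850 CPM in Am580 libraries and 2372 to 3689 CPM in DMSO libraries, and none of them was at 0. Am580 replicate 6 had the highest sum of the Am580 libraries (850 CPM), and DMSO replicate 5 the highest of the DMSO libraries (3689 CPM). Macrophage markers were called lower for 2 and higher for 1 of 5 genes tested, with a summed level of 636 to 931 CPM (Am580) and 1033 to 1495 CPM (DMSO). Of 4 epidermis markers tested, 2 were called lower, at a summed 7.72 to 18.4 CPM (Am580) and 16.7 to 71.7 CPM (DMSO).

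Some libraries were more often than others the highest or lowest of their treatment at the loci called lower. Among the 318 lower loci, Am580 replicate 6 was the highest Am580 library at 108 (34.0%), and DMSO replicate 5 was the highest DMSO library at 104 (32.7%). Am580 replicate 1, which had the lowest osteoclast sum (394 CPM), was the lowest Am580 library at 128 (40.3%). Over all 1867 rows called lower, the same libraries held these places at 29.6, 31.9 and 38.4%. DMSO replicates 1 and 6 were the lowest DMSO library at 28.3 and 26.4% of the lower loci, with osteoclast sums of 2372 and 2755 CPM. Replicates 3 and 4, whose sums of 2590 and 2648 CPM were below that of replicate 6, were the lowest at 12.9 and 14.8%. Replicate 2 (2785 CPM) was the lowest at 12.3% and replicate 5 at 5.35%. Of the 18 lower loci among the 54 named by rule, Am580 replicate 6 was the highest Am580 library at 11. At the 271 higher loci the same ends recurred among Am580 libraries only. Am580 replicate 6 was the highest Am580 library at 90 (33.2%) and Am580 replicate 1 the lowest at 87 (32.1%). Over all 1793 rows called higher, these libraries held the same places at 28.6 and 27.9%. Among DMSO libraries, replicate 5 was the highest at 22 of the higher loci, and replicate 1 was most often the highest, at 76. DMSO replicates 1 and 6 were the lowest DMSO library at 41 and 43 of the higher loci, and replicate 3 at 62. The part of osteoclast number in the lower loci was not tested. Without Am580 replicate 6, 523 loci were called (9.27%), beside 12.6% of all rows tested.

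Large fitted differences without a call came from single libraries or wide spread. At 5 loci the absolute log2 fold change was above 3 and the adjusted p above 0.05, and they were singled out after their values were seen. MSTRG.2296 had 61.4 CPM in Am580 replicate 4, no more than 1.61 CPM in the other Am580 libraries and 0 to 1.33 CPM with DMSO (log2 fold change 4.54 ± 1.65, SE, adjusted p = 0.0912). MSTRG.28060 had 0.763 to 1.01 CPM with Am580, 38.5 CPM in DMSO replicate 6 and no more than 1.73 CPM in the other DMSO libraries (log2 fold change -3.07 ± 0.985, SE, adjusted p = 0.0565).

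For 15 of the loci the paper's similarity search against Swiss-Prot supplied the name of a related protein. The study picked these loci by their change between the same treatments, and their direction is therefore no independent evidence. In edgeR's quasi-likelihood test 13 of the 15 were higher and 2 lower with Am580. The paper listed all 13 among upregulated genes for membrane-bound or secreted proteins, so their direction and protein classes follow from that choice. The related proteins of the 13 include secreted signals, receptors and matrix proteins, and all names below are those of homologs in other species.

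Several of the 13 resembled secreted signalling proteins. MSTRG.17898 resembled NDNF, a secreted factor first described in neurons, and had 2.92, 3.19 and 4.83 CPM in Am580 libraries, against 0, 0.0863 and 0.258 CPM in DMSO libraries (lowest, median and highest, log2 fold change 5.04 ± 0.434, SE), having passed the count filter through Am580 alone. MSTRG.5658 resembled SDF1, the chemokine also called CXCL12, and had 40.0, 52.0 and 58.2 CPM with Am580 and 6.48, 13.5 and 15.6 CPM with DMSO (log2 fold change 2.03 ± 0.192, SE, adjusted p = 1.31e-05). In both the groups stood clear of each other. MSTRG.1555 resembled GDF6A, a bone morphogenetic protein family ligand, and had 1.37, 4.46 and 6.74 CPM with Am580 and 0.616, 1 and 1.21 CPM with DMSO (log2 fold change 2.14 ± 0.339, SE, adjusted p = 8.24e-04). Its lowest Am580 library was only just above the highest DMSO library.

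Others resembled cytokines of the immune system. MSTRG.10022, with the chemokine IL8 as its homolog, had 106, 260.0 and 318 CPM with Am580 and 9.12, 39.8 and 107 CPM with DMSO, with the lowest Am580 library just under the highest DMSO library (log2 fold change 2.31 ± 0.490, SE, adjusted p = 0.00605). MSTRG.13661, which resembled the inflammatory cytokine IL18, had 13.8, 18.1 and 32.8 CPM with Am580 and 2.28, 4.10 and 8.44 CPM with DMSO, with no overlap (log2 fold change 2.20 ± 0.333, SE, adjusted p = 5.73e-04). MSTRG.829, which resembled IL12B, a subunit of interleukins 12 and 23, had 0.580, 8.16 and 15.2 CPM with Am580 and 0.118, 1.21 and 1.88 CPM with DMSO. Am580 replicate 1 fell among the DMSO libraries here (log2 fold change 2.85 ± 0.665, SE, adjusted p = 0.0110), and the call was lost with limma-voom (adjusted p = 0.0832). The nearest reference gene of MSTRG.829, LOC108712603, lay 256 kb away and had 16.9 to 54.9 CPM with Am580 and 0.0592 to 0.126 CPM with DMSO.

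Among loci that resembled receptors, MSTRG.21040 (HRH2, a histamine receptor) had 2.1, 8.15 and 10.9 CPM with Am580 and 0.499, 0.725 and 1.14 CPM with DMSO. Am580 replicate 1 was well below the other Am580 libraries but above every DMSO library (log2 fold change 3.32 ± 0.36, SE, adjusted p = 3.96e-05). MSTRG.22927 (TLR4, a receptor for bacterial lipopolysaccharide) had 3.45, 5.06 and 7.30 CPM with Am580 and 0.296, 0.587 and 0.876 CPM with DMSO (log2 fold change 3.09 ± 0.260, SE, adjusted p = 5.42e-06). MSTRG.3167 (FSHR, the follicle-stimulating hormone receptor), a short locus with 326 bp of exon, had 0.671, 0.913 and 1.03 CPM with Am580 and 0.0973, 0.153 and 0.226 CPM with DMSO (log2 fold change 2.47 ± 0.222, SE). Both loci were separated between treatments, and MSTRG.3167 passed the count filter through Am580 alone.

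The other higher loci with a named homolog included MSTRG.15067, which resembled VCO3, a cobra venom relative of complement C3. It had 0.446, 0.899 and 2.29 CPM with Am580 and 0.0324, 0.0946 and 0.154 CPM with DMSO (log2 fold change 3.42 ± 0.468, SE) and passed the count filter through Am580 alone. Its nearest reference gene, c4a.L, which encodes complement C4, lay 56.9 kb away on the same strand and was called higher, at 3.40 to 14.8 CPM with Am580 and 0.266 to 0.709 CPM with DMSO (log2 fold change 3.87, adjusted p = 7.88e-05). MSTRG.8675 resembled FGD2, an exchange factor for the small GTPase CDC42, and MSTRG.22754 resembled HMCN1, the matrix protein hemicentin, with log2 fold changes of 2.71 and 2.01. MSTRG.6402, which resembled the secreted protein MSMB, had 0.340, 4.40 and 8.02 CPM with Am580 and 0.1, 0.252 and 0.893 CPM with DMSO. Its groups overlapped (log2 fold change 3.17 ± 0.755, SE, adjusted p = 0.0125) and the call was lost with limma-voom (adjusted p = 0.131).

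Both lower loci with a named homolog were near 0 in Am580 libraries. MSTRG.4440, an 11-exon locus on scaffold AMEXG_0030000871 (3873284 to 4249675, minus strand), resembled TPH, tryptophan hydroxylase, which makes the precursor of serotonin. It had 0.0572, 0.155 and 0.253 CPM with Am580 and 3.37, 5.79 and 10.6 CPM with DMSO (log2 fold change -5.27 ± 0.368, SE). The other, MSTRG.23482, resembled POL, the reverse transcriptase of a fly mobile element, and is described with its neighbours below. Of 6 further loci that the study listed without a homolog, 1 was higher (MSTRG.2544) and 5 were lower with Am580.

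Those 5 included MSTRG.5087, with the largest fitted decrease of all loci. It held counts in Am580 replicate 6 only among the Am580 libraries, 0.0973 CPM, and 0.369, 1.59 and 5.45 CPM as the lowest, median and highest DMSO library (log2 fold change -6.57 ± 0.979, SE). It passed the count filter through DMSO alone, and without Am580 replicate 6 the fitted value was -9.12, so its size depends on that library. MSTRG.23812, a 5-exon locus on scaffold AMEXG_0030013322 (81764 to 101422, minus strand), had 0.355, 0.656 and 0.849 CPM with Am580 and 0.738, 22.5 and 25.4 CPM with DMSO. A single DMSO library, replicate 2, fell among the Am580 libraries while the other DMSO libraries were at 15.5 CPM or more (log2 fold change -4.92 ± 0.636, SE, adjusted p = 1.71e-04).

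Of the 5 loci with the highest level per length, 4 were not called. MSTRG.11214, a 3-exon locus on scaffold AMEXG_0030002723 (1100900 to 1103942, plus strand), stood at 5466 CPM per kb of exon, the highest of all 5642 loci. It had 4012, 4466 and 5837 CPM in Am580 libraries and 3295, 3832 and 4604 CPM in DMSO libraries, and its groups overlapped (log2 fold change 0.26, 95% interval 0.02 to 0.50, adjusted p = 0.161, and 0.0189 with library size alone). MSTRG.7265, MSTRG.6898 and MSTRG.13328 stood at 2826, 2305 and 1853 CPM per kb and were not called, with log2 fold changes of -0.18, 0.14 and 0.16. MSTRG.5103, at 2175 CPM per kb, had 1592, 2243 and 2858 CPM with Am580 and 1106, 1474 and 1813 CPM with DMSO, and its groups overlapped. It was called higher (log2 fold change 0.58 ± 0.155, SE, adjusted p = 0.0236), but not without Am580 replicate 2 (adjusted p = 0.0541), Am580 replicate 4 (0.0505) or DMSO replicate 5 (0.0502).

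A single locus, MSTRG.4113, took 1.58 to 2.13% of all counts in Am580 libraries and 1.76 to 2.44% in DMSO libraries. Its 12721 bp of exon covered its whole span on scaffold AMEXG_0030000807 (1034609 to 1047329, minus strand). It held 15466, 18423 and 21997 CPM with Am580 and 17188, 21135 and 26029 CPM with DMSO, with overlapping groups (log2 fold change -0.19, 95% interval -0.47 to 0.09, adjusted p = 0.414). At 1583 CPM per kb it stood below the loci above. MSTRG.7023, of 4 exons, had 2336 to 3008 CPM with Am580 and 2012 to 2775 CPM with DMSO (log2 fold change 0.13, 95% interval -0.08 to 0.33, adjusted p = 0.461).

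The loci with the lowest p in their range of distance to a reference gene included several outside the groups of largest change. MSTRG.945, a 5-exon locus on scaffold AMEXG_0030000170 (9737058 to 10007642, plus strand), lay 893 kb from the nearest reference gene and had 121, 157 and 216 CPM in Am580 libraries, against 26.4, 28.2 and 33.1 CPM in DMSO libraries. No library of either group came near the other group (log2 fold change 2.47 ± 0.127, SE, adjusted p = 1.75e-07). MSTRG.26586, of 4 exons on scaffold AMEXG_0030065376 (13377 to 55242, minus strand), a scaffold without a reference gene, had 133, 189 and 215 CPM with Am580 and 13.5, 21.0 and 28.5 CPM with DMSO. It too was separated by a wide gap (log2 fold change 3.08 ± 0.186, SE, adjusted p = 4.97e-07). MSTRG.6237, of 2 exons and 0.033 kb from the convergent gene LOC105357518, had 8.04, 9.18 and 10.1 CPM with Am580 and 13.9, 15.5 and 17.8 CPM with DMSO (log2 fold change -0.77 ± 0.084, SE, adjusted p = 4.33e-05).

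Among called loci of many exons, MSTRG.23383 had 26 exons across 592 kb of scaffold AMEXG_0030011365 (18668 to 610327, minus strand). It had 12.2, 13.7 and 15.8 CPM with Am580 and 8.97, 10.6 and 11.1 CPM with DMSO, a small difference without overlap (log2 fold change 0.41 ± 0.084, SE, adjusted p = 0.00524). MSTRG.16321, of 19 exons, had 2.29, 5.12 and 7.52 CPM with Am580 and 0.876, 1.27 and 1.98 CPM with DMSO (log2 fold change 1.94 ± 0.295, SE, adjusted p = 5.97e-04). It lay 5.71 kb downstream of LOC104139830, which was called higher by a log2 fold change of 3.04 (adjusted p = 5.42e-05). MSTRG.22957, also of 19 exons, overlapped between treatments and was called lower with an adjusted p close to the threshold (log2 fold change -0.62 ± 0.191, SE, adjusted p = 0.0454). When single libraries were left out in turn, its call held in 3 of 12 cases.

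Where a locus and a close reference gene were both called, they changed in the same direction. Of 2845 loci with a reference gene on their scaffold, 2199 had a nearest gene that was tested, and 229 of those loci were called. Of the nearest genes, 14.9% were called (268 of 1803 genes). Locus and gene were both called in 62 pairs, in the same direction in 53 (23 higher and 30 lower with Am580) and in opposite directions in 9. Some of the 62 pairs share a gene, such as DFNA5, TIAM1 or FABP3. Under 10 kb apart, 242 pairs were tested, 23 of the loci were called, and the gene was called too in 11 of these, each time in the same direction. The gene was called in 24 of these 242 pairs (9.92%). At all distances, the gene was called in 15.3% of tested pairs and in 27.1% of those whose locus was called. Across pairs, Pearson's r of the log2 fold changes was 0.57 under 1 kb (157 pairs), 0.52 at 1 to 10 kb (85 pairs), 0.21 at 10 to 100 kb (317 pairs) and 0.20 over 100 kb (1640 pairs). Spearman's rho was 0.43, 0.49, 0.18 and 0.18 in the same order. These values describe pairs measured in the same 12 libraries and were not tested. The 2199 pairs held 1803 genes, so pairs are not separate observations. By arrangement, r under 10 kb was 0.90 for loci upstream on the strand of the gene (50 pairs), 0.65 for loci downstream on its strand (46 pairs), 0.44 for divergent pairs (119) and -0.01 for convergent pairs (27). Spearman's rho for these arrangements was 0.81, 0.70, 0.25 and 0.06.

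**Figure D4:**
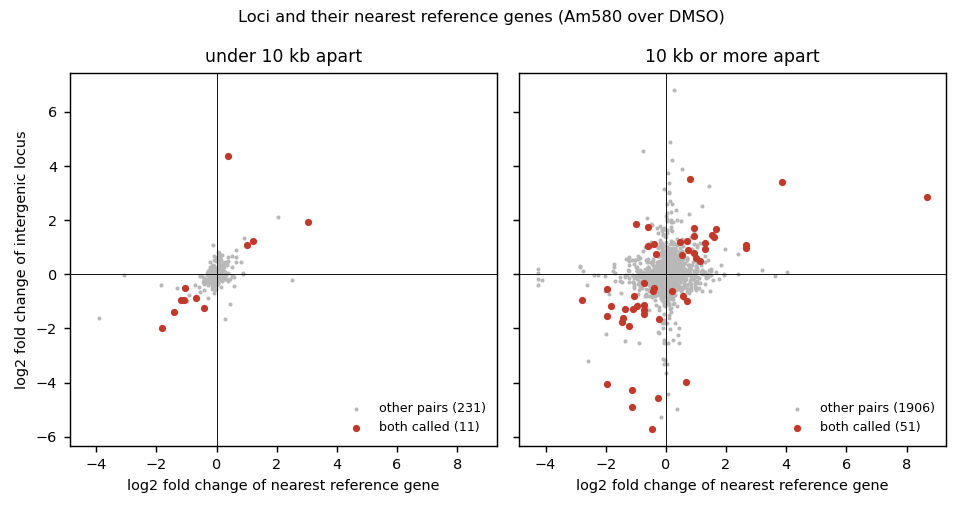
Each point is a locus and its nearest reference gene, with the log2 fold change of the gene on the horizontal axis and that of the locus on the vertical axis (both Am580 over DMSO), for pairs under 10 kb apart (left) and 10 kb or more apart (right). Red points are pairs in which both were called, and the 11 red points on the left all lie where both changes have the same sign.

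Close pairs showed both like and unlike sizes of change. MSTRG.13171, a 2-exon locus 0.105 kb downstream of smpd1.L, which encodes the lysosomal enzyme acid sphingomyelinase, averaged 0.916 ± 0.404 CPM with Am580 and 3.64 ± 1.45 CPM with DMSO (SD, n = 6 each, log2 fold change -1.98 ± 0.376, SE). The gene itself averaged 6.73 ± 1.98 CPM with Am580 and 23.9 ± 4.31 CPM with DMSO (log2 fold change -1.83 ± 0.221, SE). MSTRG.9874, of 6 exons and 9.44 kb upstream of TIAM1, an exchange factor for the small GTPase RAC1, had a log2 fold change of -1.39 ± 0.206 beside -1.42 ± 0.136 for the gene. Whether such pairs on 1 strand are parts of 1 transcript was not tested. MSTRG.6171, a 16-exon locus that began 0.055 kb from the divergent gene TRMT5, a tRNA methyltransferase, had a log2 fold change of -1.26 ± 0.213 beside -0.41 ± 0.1 for TRMT5.

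Further divergent and convergent examples were MSTRG.2792 and MSTRG.2643. MSTRG.2792 lay head to head with MON1B, a gene of endosome maturation, at 0.201 kb, with a log2 fold change of -0.50 ± 0.079 (SE) at the locus beside -1.03 ± 0.108 at MON1B. MSTRG.2643 ended 0.012 kb from the end of SUSD6, with -0.96 ± 0.225 beside -1.08 ± 0.163 at SUSD6. MSTRG.19883 lay 9.79 kb upstream of DOCK5, an activator of RAC proteins, with -0.95 ± 0.243 beside -1.18 ± 0.237 at DOCK5.

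Loci also lay next to each other. Groups of loci with no more than 50 kb between neighbours numbered 262 and held 546 loci. Any locus was called in 47 of the groups, and at least 2 loci were called in 22 groups. All called loci of a group had the same direction, higher with Am580 in 8 groups and lower in 14. In 19 of the 22 groups every locus was called, which had to be so in groups of 2 loci. Whether such neighbours are pieces of 1 transcript was not tested, and they were not taken as separate observations.

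A group of 4 loci lay on a single stretch of scaffold AMEXG_0030011772 (227719 to 334702), which carries no reference gene. MSTRG.23477 on the plus strand had 5.09, 5.84 and 12.8 CPM in Am580 libraries, against 58.2, 85.4 and 110 CPM in DMSO libraries (log2 fold change -3.56 ± 0.254, SE, adjusted p = 1.43e-06). MSTRG.23480, also on the plus strand, had 0.0858, 0.457 and 0.992 CPM with Am580 and 3.28, 10.1 and 15.7 CPM with DMSO. On the minus strand of the same stretch, MSTRG.23478 had 0.0253 to 0.292 CPM with Am580 and 0.864 to 1.83 CPM with DMSO, and MSTRG.23482 had 0 to 0.0507 CPM with Am580 and 0.308 to 0.904 CPM with DMSO. Each of the 4 loci was lower in every Am580 library than in any DMSO library. The minus-strand loci overlapped MSTRG.23477 and stood at 1.64% (MSTRG.23478) and 0.742% (MSTRG.23482) of its mean level. Whether plus-strand counts entered these loci was not tested.

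MSTRG.4053 and MSTRG.4054 followed each other on the plus strand of scaffold AMEXG_0030000797 (2448959 to 2659732), 419 kb from FABP3, a fatty acid binding protein gene. MSTRG.4053 had 0.275, 0.501 and 1.29 CPM with Am580 and 7.49, 12.8 and 14.1 CPM with DMSO, and MSTRG.4054 had 0, 0.0259 and 0.146 CPM with Am580 and 0.554, 1.6 and 1.88 CPM with DMSO. Every Am580 library was below every DMSO library at both (log2 fold changes -4.27 and -4.91). MSTRG.4054 passed the count filter through DMSO alone, and its value was -5.83 without Am580 replicate 6. FABP3 was called lower (log2 fold change -1.14, adjusted p = 0.00411). MSTRG.14498 on scaffold AMEXG_0030003945 had 58.6, 66.9 and 114 CPM with Am580 and 246, 433 and 485 CPM with DMSO, next to MSTRG.14500 at 0.0261 to 0.233 CPM with Am580 and 0.260 to 2.87 CPM with DMSO.

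Among groups that were higher with Am580, MSTRG.5658, the locus that resembled SDF1, was followed on its strand by MSTRG.5660 at 54.7, 70.1 and 81.0 CPM with Am580 and 8.72, 14.4 and 17.7 CPM with DMSO (log2 fold change 2.27 ± 0.157, SE, adjusted p = 1.18e-06). MSTRG.22133 and MSTRG.22135, on the minus strand of scaffold AMEXG_0030009299, had 42.6 to 161 CPM and 46.9 to 113 CPM with Am580, and 6.17 to 19.6 CPM and 5.46 to 14.2 CPM with DMSO. MSTRG.17335, of 6 exons on the minus strand of scaffold AMEXG_0030005188 (358442 to 442218), had 420 to 1015 CPM with Am580 and 56.6 to 99.9 CPM with DMSO (log2 fold change 3.03 ± 0.231, SE, adjusted p = 2.47e-06).

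**Figure D5:**
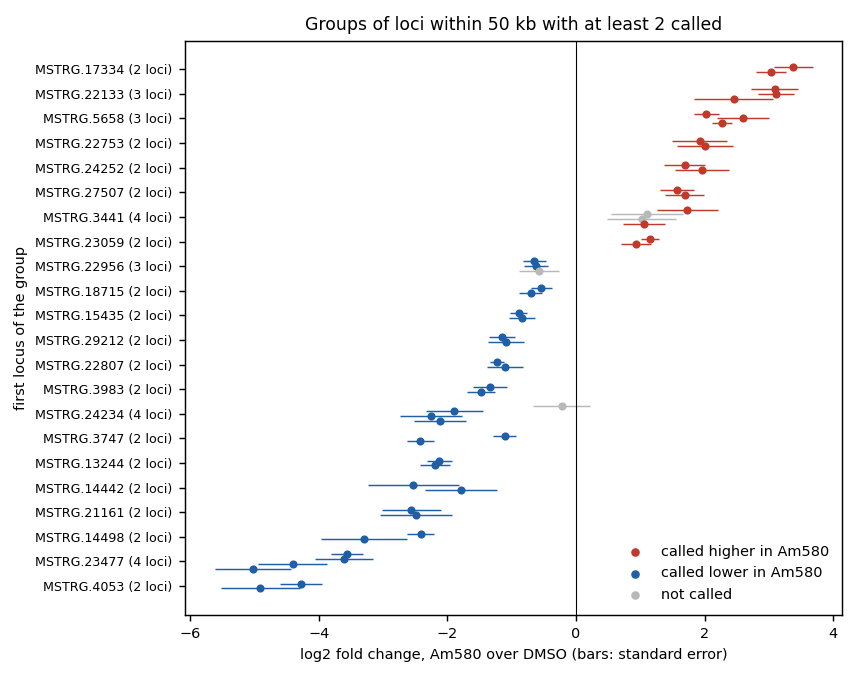
Log2 fold changes (Am580 over DMSO, bars give the SE) of the loci in the 22 groups of neighbours with at least 2 called loci, a row for each group, named by its first locus. Within each row all called loci lie on the same side of 0, and grey points were not called.

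Opposite-strand partners were a large part of these groups. There were 89 pairs of loci whose spans overlapped on opposite strands. The partner with fewer counts had a median of 2.74% of the level of the other in CPM (range 0.0686 to 85.1%) and less than 5% in 59 pairs. The log2 fold changes of the partners had a Pearson's r of 0.88 (Spearman's rho 0.77) across the 89 pairs, as a description over pairs that share libraries and a stretch of genome. Both partners were called in 12 pairs, always in the same direction, and in 10 of these the minor partner was under 5% of the major one. Some of the 12 pairs share loci and are not separate observations. MSTRG.23478 and MSTRG.23482, on a single stretch, each pair with both MSTRG.23477 and MSTRG.23480. MSTRG.22808, on the plus strand, averaged 3.69 CPM or 1.31% of MSTRG.22807 at 282 CPM on the minus strand, with log2 fold changes of -1.10 and -1.23. MSTRG.5659 averaged 0.302 CPM or 0.732% of MSTRG.5660 at 41.2 CPM, with log2 fold changes of 2.59 and 2.27. The libraries were stranded and counted by strand, and whether counts of the major strand entered the minor locus was not tested.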

How the data were processed

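Poly-A selected, stranded libraries of 12 blastemas were sequenced as paired reads. The authors used Trimmomatic 0.36 for trimming, HISAT2 2.1.0 for alignment to AmexG_v3.0.0, StringTie 1.3.4d to assemble and merge the transcripts of both treatments, and featureCounts (Subread 1.6.2) to count read pairs per gene by strand. The deposited count table holds raw counts without normalization. The merged assembly, also deposited, gives other values, the coordinates of transcripts and exons. A deposited table of normalized signal was not used. The test ran in edgeR 4.0.16 (R 4.3.3) as the legacy quasi-likelihood F test with TMM factors and no covariate, on rows that reached 10 counts in 6 or more libraries. P was adjusted by Benjamini-Hochberg over all 25879 rows, and a call is an adjusted p under 0.05. A standard error was computed from the F statistic. CPM used TMM-scaled library sizes. Tables and plots used Python 3.11.15, pandas 2.3.3 and matplotlib 3.10.9. The pipeline was tested on simulated data.

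Members, lists and rules were chosen with earlier results of these data known. Loci named in the text were the 10 called loci per direction with the largest change among those of 1 CPM or more whose treatments did not overlap, the 5 with the highest level per kb, those the study lists by StringTie identifier, the 3 called with the most exons, the 3 highest not called, the 3 highest with no more than 3 counts in every library of 1 treatment, the lowest p in each distance range, neighbours of the first set, and their nearest reference genes. CYP26A, RARB and DHRS3 were the check of the treatment. Other loci named as pairs, groups, single-library cases or at the limit of a count of 0 were picked after their values were seen. Marker symbols were matched to the names in the assembly and were missed where it used other names. Alternatives were DESeq2 1.42.0, limma-voom (limma 3.58.1), the current form of the quasi-likelihood test, other scalings and filters, a block for the replicate number, fits without 1 library, and stricter definitions of the loci. The replicates are separate blastemas.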

Additional observations from a re-analysis of the deposited data

Results flagged for a closer look

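For the 54 named loci, the highest and lowest library of each treatment was compared with the other libraries of that treatment by Dixon's test (108 groups of 6). Nominally, chance sets about 1 in 20 groups apart, and 11 libraries were set apart here. That rate may not hold for CPM near 0. At MSTRG.12044 and MSTRG.5087 a single library of a treatment held counts and the others 0, which the test always sets apart. The 11 libraries are given as values in CPM, with the range of the other 5 libraries of the treatment.

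At loci called higher with Am580, MSTRG.16792 had 123 in Am580 replicate 6 against 18.5 to 36.7 in the others. MSTRG.21040 had 2.1 in Am580 replicate 1 against 6.29 to 10.9, and MSTRG.829 had 0.58 in the same library against 4.62 to 15.2. In DMSO libraries, MSTRG.829 had 0.118 in replicate 3 against 0.771 to 1.88, MSTRG.15509 had 0.131 in replicate 5 against 0.444 to 0.812, and MSTRG.22754 had 0.394 in replicate 5 against 1.17 to 1.81. MSTRG.12044 had 0.025 in DMSO replicate 4, from a single count, against 0 in the others.

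At loci called lower, MSTRG.23812 had 0.738 in DMSO replicate 2 against 15.5 to 25.4 in the other DMSO libraries, and MSTRG.22957 had 6.29 in DMSO replicate 1 against 10.2 to 13.1. MSTRG.5087 had 0.097 in Am580 replicate 6 against 0. MSTRG.6898, which was not called, had 2233 in Am580 replicate 1 against 1159 to 1462.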

How the results depend on the processing

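The 589 calls stayed within 1.5 times under each alternative. With 1 library fewer they were between 477 (DMSO replicate 5 left out) and 652 (Am580 replicate 1 left out). DESeq2 gave 760 calls, of which 587 were shared. The called share of the loci was 8.45% without DMSO replicate 5, 11.6% without Am580 replicate 1 and 13.5% with DESeq2. Over all rows tested the share was 11.7, 15.3 and 18.2%. Left-out libraries gave ranges of 222 to 307 loci called higher, 255 to 363 called lower, 288 to 337 with a log2 fold change of 1 or more in size, 374 to 465 without overlap and 44 to 65 whose nearest reference gene was called in the same direction. Separation is easier to reach with 1 library fewer, so the counts without overlap exceed the 349 of all libraries by construction. With at least 10 counts in every library, which leaves 4560 loci and drops those low in 1 treatment, 200 instead of 319 passed the larger threshold. With 3 or more exons required, which leaves 3859 loci, 177 instead of 271 were called higher. The share of calls that were higher with Am580 was 46.0% with TMM factors, 56.4% with library size alone and 50.9% with upper-quartile factors. With TMM factors but without DMSO replicate 1 it was 51.7%. A block for the replicate number gave 541 calls (9.59% of the loci, beside 13.3% of all rows tested), 462 of them shared. The block took the calls of MSTRG.829 (adjusted p = 0.0976) and MSTRG.6402 (0.0753). The numbers were not taken to pair libraries, since deviations of same-numbered libraries correlated between -0.17 and 0.23, above 0.1 in 3 of 6 pairs, and 1 of 6 Am580 libraries correlated best with its own number. Of the 48 called among the 54 loci named by rule, 44 were called under each alternative that tested them, 19 of them under all 22 and 25 under 20 or 21. Each of these 25 had a library under 10 counts, so the fit with 10 counts in every library did not test them. They include the 12 named loci that passed the count filter through 1 treatment and had to differ. Many of the 54 were also chosen for a large change, so these counts are a description and no independent support. Loci below 1 CPM had the widest spread, and the depth limits what can be called there.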
